A study of Mus musculus with 8 samples.

Results

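A cassette exon is an internal exon that the spliceosome either joins into the mRNA or skips together with both introns around it. The cassette exon events described here are the rows of the authors' splicing table that carry this class, 1556 of 26983 events, in 1365 genes of BaF3 cells after knockdown of Ybx1. Of these genes 1219 held 1 event, 146 held 2 or more, and no gene held more than 4. Ybx1 itself had no cassette exon event.

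Inclusion of a cassette exon is set by splice site strength and by RNA-binding proteins that sit on the exon or its flanking introns, such as SR proteins and hnRNPs. An exon whose length is a multiple of 3 leaves the reading frame intact when it is skipped, whereas other lengths shift it and can bring in an early stop codon that sends the mRNA to nonsense-mediated decay. YBX1 is a cold shock domain protein that binds single-stranded RNA, in human cells with a preference for CAUC and CACC, and that has been linked to exon choice and to mRNA stability and translation.

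All libraries came from BaF3, a mouse pro-B cell line that depends on interleukin-3, here with Jak2 V617F, the change that leaves this kinase active in myeloproliferative neoplasms. A hairpin that targets no gene (shNT) was present in 4 libraries, and either of 2 hairpins that target Ybx1 in the rest, with 2 libraries for sh1Ybx1 and 2 for sh2Ybx1. The labels name no other agent. The labels leave unsaid whether replicates were separate cultures, and every p-value here therefore rests on the spread of these 8 libraries, which may be technical. The question was how mRNA processing and splicing differed once Ybx1 was lowered.

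Ybx1 was at 1607 to 1731 CPM (counts scaled to the TMM-adjusted library size) in shNT and at 130 to 217 CPM in the knockdown libraries. Total gene counts were 26093847 to 37549926 in shNT and 22779437 to 26464953 in the knockdown, so depth moved with the groups and its part in the results was not tested. The library shNT replicate 4 stood apart from the other shNT libraries (chi-square per degree of freedom of 177 to 350 against them, and 63.4 to 102 among the other 3). Of 13 B lymphoid markers, 7 were under 1 TPM in all 8 libraries, with Ebf1 listed at 0 throughout and Pax5 at 0 in shNT. Other B lymphoid markers were present. Cd79a was at 7.43 to 24.86 TPM in shNT and 18.47 to 20.98 TPM in the knockdown. Cd79b was at 12.03 to 18.41 TPM and 6.28 to 11.7 TPM, and Ikzf1 at 8.66 to 15.69 TPM and 4.09 to 8.67 TPM. Ptprc was at 31.5 to 48.1 TPM in shNT and 42.4 to 133 TPM in the knockdown. Summed mast cell markers were at 427 to 573 TPM in shNT and 212 to 312 TPM in the knockdown. Nearly all of that sum was Gata2 (426 to 557 TPM and 200 to 296 TPM, a gene other blood cells also use). Cpa3 was at 0 to 8.44 TPM in shNT and 8.83 to 34.3 TPM in the knockdown. Hdc lay the other way, at 0.61 to 7.88 TPM and 0 to 0.87 TPM, and Kit, Mcpt8 and Tpsb2 were listed at 0. Summed myeloid markers were at 213 to 341 TPM and 266 to 670 TPM. The part of these levels in the results was not tested.

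Annotation of the GENCODE M21 transcripts (GRCm38) placed the exon in 1385 events. It was fully coding in 1024 of them. By event, 1034 had annotated transcripts both with and without the exon, 351 had none that skips it, 114 had none that includes it, 39 had a flanking junction outside the annotation, and 18 had no gene ID in it. The median exon was 96 bases long, from 3 to 3804 bases, 53 exons were microexons of at most 27 bases, and 718 had a length that is a multiple of 3. The exons below carry the events that the results turn on and that lie in coding sequence throughout, each in capitals between 15 bases of its neighbouring exons in lower case, read 5′ to 3′ from the GENCODE M21 transcripts.
Ptbp2: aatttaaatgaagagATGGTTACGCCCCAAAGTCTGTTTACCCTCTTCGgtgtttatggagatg
Supt5: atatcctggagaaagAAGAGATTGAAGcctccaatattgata
Unk: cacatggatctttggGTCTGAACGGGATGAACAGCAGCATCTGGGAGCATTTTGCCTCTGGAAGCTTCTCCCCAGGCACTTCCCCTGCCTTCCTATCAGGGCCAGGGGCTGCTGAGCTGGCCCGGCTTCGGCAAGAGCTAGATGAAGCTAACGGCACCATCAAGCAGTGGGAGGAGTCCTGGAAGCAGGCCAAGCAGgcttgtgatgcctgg
Ahcyl1: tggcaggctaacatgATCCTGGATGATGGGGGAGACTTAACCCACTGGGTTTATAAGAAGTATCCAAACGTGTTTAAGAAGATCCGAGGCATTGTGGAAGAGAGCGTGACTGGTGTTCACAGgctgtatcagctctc
Papd4: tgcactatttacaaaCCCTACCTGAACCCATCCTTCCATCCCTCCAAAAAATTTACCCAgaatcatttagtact
Dguok: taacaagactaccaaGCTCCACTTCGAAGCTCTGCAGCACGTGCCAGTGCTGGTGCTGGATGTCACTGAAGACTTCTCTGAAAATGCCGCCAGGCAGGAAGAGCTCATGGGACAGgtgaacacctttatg
Stat5a: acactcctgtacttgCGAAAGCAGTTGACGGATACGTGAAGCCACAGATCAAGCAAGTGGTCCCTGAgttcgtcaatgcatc
Map3k7: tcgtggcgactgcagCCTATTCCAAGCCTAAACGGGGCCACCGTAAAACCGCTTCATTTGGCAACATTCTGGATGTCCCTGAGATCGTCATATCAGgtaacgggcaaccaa
Mapkapk3: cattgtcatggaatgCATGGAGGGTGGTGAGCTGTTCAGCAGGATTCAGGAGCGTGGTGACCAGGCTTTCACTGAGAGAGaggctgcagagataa
Braf: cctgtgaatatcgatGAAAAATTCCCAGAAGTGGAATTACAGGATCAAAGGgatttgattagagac
The Ptbp2 exon, 34 bases long, lies at chr3:119724612-119724645 on the minus strand and is exon 10 of 14 in the transcript shown. The Supt5 exon, a microexon of 12 bases, lies at chr7:28330018-28330029 on the minus strand and keeps the frame when it is skipped. The Unk exon (182 bases) lies at chr11:116058243-116058424 on the plus strand, and the Ahcyl1 exon (107 bases) at chr3:107671138-107671244 on the minus strand. The Papd4 exon (44 bases) lies at chr13:93159645-93159688 and the Dguok exon (100 bases) at chr6:83480843-83480942, both on the minus strand. The Stat5a exon (52 bases) lies at chr11:100881738-100881789 and the Map3k7 exon (81 bases) at chr4:31994874-31994954, both on the plus strand. The Mapkapk3 exon (65 bases) lies at chr9:107262423-107262487 and the Braf exon (36 bases) at chr6:39648821-39648856, both on the minus strand. Among these 10 exons, those of Supt5, Map3k7 and Braf have a length that is a multiple of 3, while each of the other exons shifts the frame when skipped.

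The 1st comparison asked which cassette exons differed in percent spliced in (PSI, the share of transcripts that include the exon) between knockdown and shNT. The authors' deposited table gives 1 difference per event (delta PSI) and an unadjusted p, with no value per library. Its sign was read as knockdown minus shNT from called retained introns that covered at least 0.8 of an exon bin. In 80 of 80 such pairs of intron and bin, delta PSI had the sign of the authors' log2 fold change of the bin. No cassette event entered this check. With the authors' deposited table, 100 cassette events (6.43%) had a p under 0.05, beside 7.15% of all events, 3.87% of all events other than retained introns and 23.6% of retained introns. Inclusion was higher in the knockdown for 43 of the 100, lower for 52 and at a delta of 0 for 5 in the authors' deposited table. Over all events of the authors' deposited table, 5.41% were called higher and 1.20% lower, and among called retained introns 988 were higher and 8 lower. The share called was thus near that of all events, which include the retained introns, and above the 2.63% to 4.38% of each other class. Called cassette exons fell in both directions where retained introns lay almost all on the higher side. Mixed directions were not particular to cassette exons. Alternative first exons had 40 higher and 49 lower, last exons 31 and 59, 5′ splice sites 31 and 27, and 3′ splice sites 49 and 30. Complex events had 276 higher and 95 lower.

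**Figure D1:**
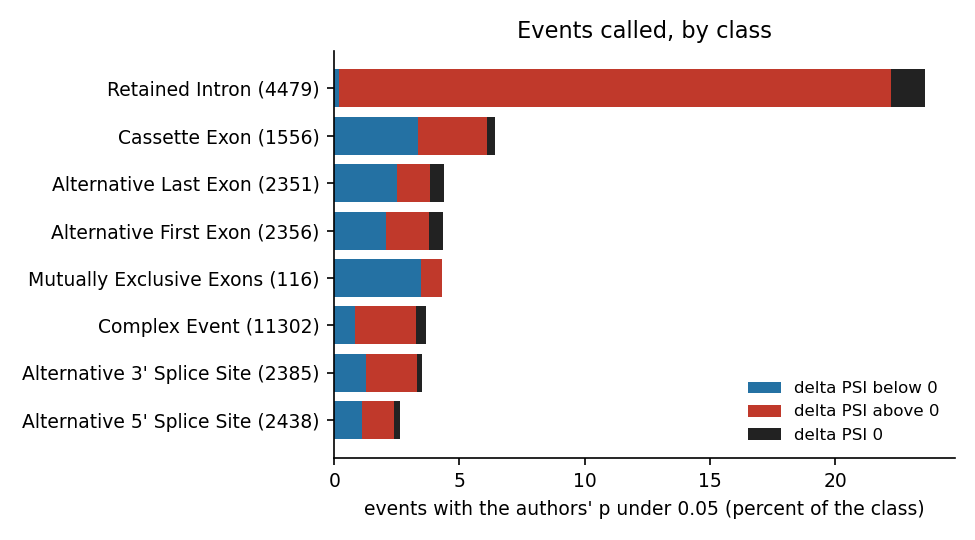
Percent of events in each class with the authors' p under 0.05, split by the sign of delta PSI (knockdown minus shNT), with the number of events in brackets. Cassette exons reach 6.43% with 52 lower and 43 higher, against 23.6% of retained introns, 988 of them higher.

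Most events lay near 0. The middle of the distribution in the authors' deposited table ran from -1.93 percentage points (25th percentile) to 2.61 points (75th percentile), and the extremes were -30.3 points in Prrg2 and 37.0 points in Slc20a1. An absolute delta of 10 points or more was reached by 187 events of the authors' deposited table, of which 49 were called and 138 were not. Another 28 called events lay within 5 points of 0 in the authors' deposited table. The plot of delta PSI against p shows each event.

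**Figure D2:**
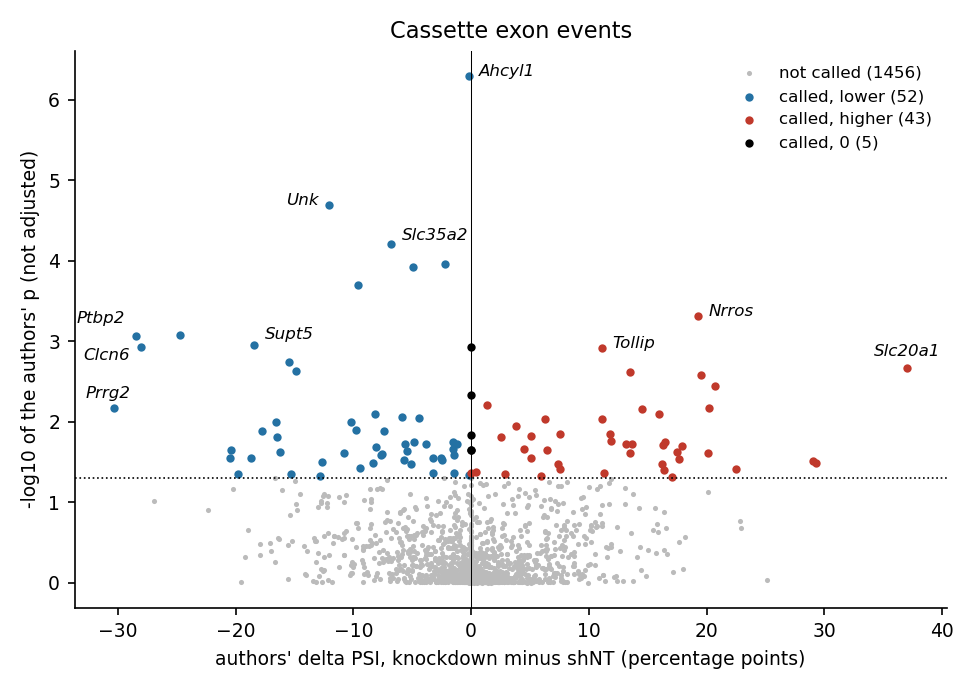
Delta PSI in percentage points (knockdown minus shNT, linear axis) against -log10 of the authors' unadjusted p, 1 point per cassette exon event, with the dotted line at p = 0.05. Of 1556 events, 52 are called lower, 43 higher and 5 at a delta of 0; Ahcyl1 has the smallest p with a delta of -0.184 points, and Slc20a1 the highest delta with 37.0 points.

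After Benjamini-Hochberg adjustment of the authors' p over all 26983 events, 7 cassette events stayed under 0.05 (0.450% of cassette events, beside 1.36% of all events), 6 lower and 1 higher. The lower exons described here belong to genes of several kinds. Ahcyl1, which encodes a regulator of inositol trisphosphate receptors, had the smallest p in the authors' deposited table (5.05e-07, adjusted 0.000349) with a delta PSI of -0.184 points. Unk, an RNA-binding zinc finger protein, fell by 12.1 points in the authors' deposited table (p = 2.01e-05, adjusted 0.00484). Slc35a2, the Golgi transporter of UDP-galactose, fell by 6.79 points in the authors' deposited table (adjusted p = 0.0105). Papd4, a cytoplasmic poly(A) polymerase, fell by 4.96 points in the authors' deposited table (adjusted p = 0.0161), and Brwd3, a bromodomain protein, fell by 9.56 points (adjusted p = 0.0219). The 1 higher event was in Nrros, which anchors latent transforming growth factor beta on myeloid cells, at 19.2 points in the authors' deposited table (p = 0.000480, adjusted 0.0399).

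The events next in rank did not pass the adjustment, and their values are given by size. Lower inclusion in the authors' deposited table was listed for Shc1, an adaptor between receptors and Ras, at -24.7 points (adjusted p = 0.0579), and for Ptbp2, a splicing repressor of neural exons, at -28.5 points (adjusted p = 0.0582). Supt5, a subunit of the elongation factor DSIF, had -18.4 points for its 12-base exon in the authors' deposited table (adjusted p = 0.0685). Clcn6, an endosomal chloride transporter, had -28.0 points and Dguok, the mitochondrial deoxyguanosine kinase, -15.4 points in the authors' deposited table. Pogz, a heterochromatin-associated zinc finger protein, had -14.8 points, Prrg2, a Gla domain membrane protein, -30.3 points, Zmym3, a zinc finger protein of histone deacetylase complexes, -10.2 points and Ccdc130 -16.6 points in the authors' deposited table. The adjusted p of these last 6 genes ran from 0.0711 (Clcn6) to 0.272 (Zmym3 and Ccdc130) with the authors' deposited table as source. Zmym3 was the 1 gene with 2 called cassette events, and the other, downstream exon stood at -9.75 points in the authors' deposited table (unadjusted p = 0.0128).

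Among events with higher inclusion, the authors' deposited table listed Tollip, an adaptor of Toll-like and interleukin-1 receptors, at 11.1 points (adjusted p = 0.0712). Slc20a1, a sodium-dependent phosphate transporter, had 37.0 points in the authors' deposited table (adjusted p = 0.105). Naa16, an auxiliary subunit of an N-terminal acetyltransferase, had 20.7 points and Spopl, a substrate adaptor of cullin ligases, 19.6 points in the authors' deposited table. Etfbkmt, a mitochondrial lysine methyltransferase, had 15.96 points, Fam45a 14.5 points and Patz1, a zinc finger transcription factor, 13.5 points in the authors' deposited table. Pisd, the mitochondrial phosphatidylserine decarboxylase, had 11.8 points and Rnf111, a ubiquitin ligase of transforming growth factor beta signalling, 11.1 points in the authors' deposited table. None of these 9 events passed the adjustment.

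Gene groups were described by counts. In the list of 39 MAPK and ERK pathway genes, 8 genes held 10 events, of which 3 were called at the authors' p under 0.05, 2 lower (Shc1 and Map3k7) and 1 higher (Mapkapk3). Map3k7, the kinase TAK1 that relays cytokine signals, had -10.8 points for its 81-base exon in the authors' deposited table (p = 0.0246). Mapkapk3, a kinase activated by p38, had 3.78 points for its 65-base exon in the authors' deposited table (p = 0.0114). The other 7 pathway events were not called, with unadjusted p of 0.267 (the downstream exon of Shc1, 8.65 points), 0.278 (Mapk9, which encodes JNK2, -13.3 points), 0.566 (Braf, the kinase upstream of MEK, -2.46 points) and 0.609 (the scaffold Ksr1, 10.6 points) in the authors' deposited table. Mknk2 and Mknk1, kinases that phosphorylate a cap-binding translation factor, had 5.15 points in 1 event and 5.42 and -0.0350 points in 2 events, with p of 0.687, 0.811 and 0.837 in the authors' deposited table. The median over the 10 events was 1.87 points in the authors' deposited table, beside 0 over all cassette events.

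Of 22 JAK and STAT signalling genes, 4 held 1 event each and 1 was called, in Stat5a, the transcription factor that Jak2 phosphorylates, with -9.44 points for its 52-base exon in the authors' deposited table (p = 0.0372). Among 48 hnRNP and other splicing regulator genes, 18 held 21 events with 2 called, both lower, Ptbp2 and Celf2 (-1.56 points, p = 0.0216 in the authors' deposited table). The 22 SR protein genes held 2 events and the 16 nonsense-mediated decay genes 4, with none called at the authors' p under 0.05. Of 38 core spliceosome genes, 6 held 6 events with 2 called. Prpf3, a component of the tri-snRNP, had 13.2 points (p = 0.0190), and Snrnp200, the helicase that unwinds the snRNAs, was at 0 with p = 0.0226 in the authors' deposited table. Chromatin regulators had 1 called of 18 events, Kmt2c, a histone methyltransferase, at -17.8 points in the authors' deposited table (p = 0.0131). The cell cycle list (6 events), the DNA damage list (6), the glycolysis list (5), the apoptosis list (2) and the lists of translation factors, cold shock domain proteins and stress response (1 each) held no called event. Actin and cytoskeleton genes had 1 called of 22 events, Epb41l2, a membrane skeleton protein, at 17.9 points in the authors' deposited table (p = 0.0199). Counts of 0 to 3 in lists of 1 to 22 events are given beside the 6.43% of all cassette events called, and nothing is read from them.

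The 2nd comparison asked whether the transcript values of each library showed the same exons moving. For 987 events with an annotated form with the exon and 1 without it, the authors' TPM of transcripts with the exon was set against that of transcripts that skip it between the same flanks. In 205 cassette events more than 1 exon form is annotated between the flanks, and inclusion sums all of them. Inclusion shares in shNT covered the whole range, with a median of 59.1% over 968 events, 176 events above 90% and 112 below 10%. Here and below, a value for both hairpins sets the mean of the 2 hairpin groups against shNT. It does not require a call with each hairpin. None of the 987 passed limma's adjusted p under 0.05 for both hairpins, for sh1Ybx1 or for sh2Ybx1. An unadjusted p under 0.05 was reached by 72 (7.29%), 67 (6.79%) and 70 (7.09%), in that order. The fit for both hairpins had little power in simulated data. With ratios shifted by a factor of 2, 4 or 16, in 30 events each, it called 0, 0 and 5. A count of 0 therefore does not show that exon inclusion stayed the same. In 946 events with a share in all 8 libraries the median SD was 12.5 points among shNT libraries and 14.4 points among knockdown libraries, against a median absolute difference of 7.83 points between the means. Most shares thus moved by less than their spread. All 4 knockdown libraries lay above all 4 shNT libraries in 17 events and below them in 15, together 3.38% of the 946. Such a separation has a two-sided exact permutation p of 0.0286 in any single event, so a share of 3.38% lies near that of chance. Among called events with a delta other than 0 and a transcript value, 36 of 59 had the same sign as the delta in the authors' deposited table and 23 the opposite sign.

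In Nrros all knockdown libraries had a higher transcript share of inclusion between the flanks of the event. The exon, 1160 bases long and partly coding, lies at chr16:32162238-32163397 on the minus strand. Between its flanks 3 exon forms are annotated, in 4 transcripts, and the share sums them all. Of the TPM with or without an exon there, they made up 14.7%, 8.64%, 14.2% and 3.28% in shNT, 30.9% and 35.4% in sh1Ybx1, and 35.2% and 19.5% in sh2Ybx1. Every knockdown library was above every shNT library. Means were 10.2% ± 5.37 (SD, n = 4) in shNT and 30.3% ± 7.45 (SD, n = 4) in the knockdown, a difference of 20.0 points with a two-sided exact permutation p = 0.0286, the smallest that 70 arrangements can give. In limma's fit over all 987 events the log2 inclusion ratio rose by 1.92 (SE 0.753), with an adjusted p of 0.621. Nrros RNA as a whole was not called (edgeR log2 -0.07, adjusted p = 0.669).

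Tollip and Mprip, which encodes a myosin phosphatase partner and was chosen after its values were seen, were the other called events without overlap. Transcripts with the 89-base Tollip exon (chr7:141898695-141898783, minus strand, partly coding) were at 2.56% of TPM in shNT replicate 1 and listed at 0 in the other 3 shNT libraries, and at 5.70% and 24.4% in sh1Ybx1 and 34.4% and 10.5% in sh2Ybx1. All knockdown shares thus lay above all shNT shares, with limma adjusted p = 0.346 over all events. Transcripts with the 3804-base Mprip exon (chr11:59757524-59761327, plus strand), the longest of the cassette exons, were at 12.8%, 13.3%, 16.7% and 10.2% in shNT, 28.7% and 25.2% in sh1Ybx1 and 31.5% and 17.2% in sh2Ybx1. Here the lowest knockdown share was 17.2% and the highest shNT share 16.7%, and limma's adjusted p was 0.747. The TPM of Mprip transcripts with the exon was similar, at 5.62 to 10.92 in shNT and 5.61 to 10.21 in the knockdown. That of transcripts that skip it was lower, at 48.72 to 54.54 in shNT and 13.91 to 43.15 in the knockdown. The authors' deposited table gave Mprip 13.7 points (p = 0.0191).

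Other exons did not separate the groups. For Ptbp2, transcripts with the 34-base exon were at 100%, 65.1%, 26.5% and 43.4% in shNT, 100% and 100% in sh1Ybx1 and 59.0% and 71.4% in sh2Ybx1. Both groups overlapped, and the direction of the means was opposite to the -28.5 points of the authors' deposited table (exact permutation p = 0.286). For Unk, Spopl, Naa16, Fam45a and Pisd the means also went opposite to the delta of the authors' deposited table, with overlap. Fam45a means were 70.9% in shNT and 54.1% in the knockdown (exact permutation p = 0.429). Pisd was at 100% in every library but sh2Ybx1 replicate 1, at 68.1%. For Patz1, Etfbkmt, Pogz, Prrg2, Ccdc130, the called Shc1 exon and the upstream Zmym3 exon the means went with the delta, also with overlap. The Unk shares were 85.8%, 75.4%, 83.0% and 100% in shNT and 100%, 65.0%, 100% and 100% in the knockdown (exact permutation p = 0.657). The Spopl means were 71.2% ± 6.14 and 59.6% ± 25.7 (SD, n = 4 each, exact permutation p = 0.457). The Naa16 shares were 93.6%, 96.6%, 81.8% and 100% in shNT, and a listed 0, 98.3%, 94.7% and 100% in the knockdown (exact permutation p = 0.829). For Stat5a the shares were 67.3%, 100%, 44.1% and 54.4% in shNT, 62.6% and 21.3% in sh1Ybx1 and 69.1% and 22.5% in sh2Ybx1. These overlapped as well, with the mean lower in the knockdown (exact permutation p = 0.257). Map3k7 has 2 annotated exon forms between the flanks. Their summed share stood at 60.1%, 58.7%, 83.2% and 100% in shNT, 8.84% and 76.1% in sh1Ybx1 and 76.5% and 100% in sh2Ybx1, and the range of the knockdown libraries held all of the shNT values. For Dguok the shares were 69.2%, 37.1%, 49.6% and 100% in shNT and 0%, 77.1%, 0% and 47.1% in the knockdown, again with overlap (exact permutation p = 0.229).

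Within the MAPK and ERK genes, Mapk9 was lower without overlap although its event was not called. Transcripts with its 241-base exon, which only noncoding transcripts hold, were at 16.6%, 8.48%, 12.6% and 9.12% in shNT, 7.26% and a listed 0 in sh1Ybx1, and a listed 0 and 6.39% in sh2Ybx1. The highest knockdown share was 7.26% and the lowest shNT share 8.48% (exact permutation p = 0.0286, limma adjusted p = 0.690 over all events). For Braf the 36-base exon was at 55.0%, 60.6%, 57.5% and 51.6% in shNT, 37.7% and 46.3% in sh1Ybx1 and 80.0% and 69.6% in sh2Ybx1. Both sh1Ybx1 libraries lay below shNT and both sh2Ybx1 libraries above it, and the mean over all knockdown libraries was 58.4% against 56.2% in shNT (exact permutation p = 0.857). The log2 ratio differed by -1.87 (SE 0.925) between sh1Ybx1 and sh2Ybx1, with a limma adjusted p of 0.754. A difference between the hairpins was called in 0 of 987 events by limma, with 69 at an unadjusted p under 0.05.

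The 3rd comparison used the authors' exon table, whose bins carry counts per library. It lists bins that the authors had largely selected, since 522 of 554 fitted bins (94.2%) passed limma's adjusted p under 0.05 for their count relative to the gene count. Within the spans of 30 cassette events lay 34 bins, of which 29 were called higher and 2 lower, a share near that background. The authors counted 29 of these 34 bins for the host gene of the event, 26 of them called higher and 2 lower, and the other 5 for an overlapping gene or for an event with no host ID. For sh1Ybx1 alone 31 of the 34 were called, beside 92.2% of all bins, and for sh2Ybx1 alone 32, beside 93.3%. Without sh1Ybx1 replicate 1 the sh1Ybx1 count was 8. A single bin, in Nrros, coincided with a cassette exon. Among the 30 events those of Nrros, Slc20a1, Trim26 and Rex1bd were called at the authors' p under 0.05, and the rest were not. Rex1bd had -4.86 points in the authors' deposited table (p = 0.0177). The 2 bins in its span, counted for an overlapping gene, were not called (log2 -0.19 and -0.14, limma adjusted p = 0.356 and 0.494).

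The Nrros bin is the whole 1160-base exon. It held 132, 138, 201 and 66 reads in shNT, 277 and 245 in sh1Ybx1 and 175 and 194 in sh2Ybx1, or 4.73%, 4.02%, 4.89% and 3.57% of the gene count, 11.7% and 11.1%, and 8.58% and 7.96%. All knockdown libraries lay above all shNT libraries, and sh1Ybx1 above sh2Ybx1. The log2 share rose by 1.18 (SE 0.207, limma adjusted p = 0.000569), by 1.41 with sh1Ybx1 (adjusted p = 0.00220) and by 0.95 with sh2Ybx1 (adjusted p = 0.00509), and leaving out each library in turn kept the call. The count of span bins called for both hairpins also stayed at 31 on leaving out each library. Since the listed bins were largely selected in these same libraries, these p-values and this stability are no independent evidence for the event.

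For Slc20a1 the inclusion form is not in the annotation, but a bin of 859 bases (chr2:129204246-129205104, plus strand) lies inside the span of its event. Its reads were 4.78%, 4.998%, 3.83% and 8.94% of the gene count in shNT, 12.5% and 12.2% in sh1Ybx1 and 12.8% and 13.9% in sh2Ybx1. No knockdown library overlapped shNT, where replicate 4 was the highest, and the log2 share rose by 1.26 (SE 0.272, limma adjusted p = 0.00131). Trim26, a ubiquitin ligase chosen after its values were seen, has a called 18-base exon (7.52 points, p = 0.0142 in the authors' deposited table) and a bin of 78 bases in the same span that does not overlap it. That bin held 0.976%, 1.16%, 0.798% and 1.14% of the gene count in shNT, 2.82% and 2.08% in sh1Ybx1 and 2.11% and 1.76% in sh2Ybx1, from 6 to 54 reads per library. Its log2 share rose by 1.05 (SE 0.228, limma adjusted p = 0.00134). The transcript share of inclusion, over 2 annotated exon forms, overlapped between the groups. Both bins come from the same selected set, so their adjusted p are no independent evidence for the events.

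**Figure D3:**
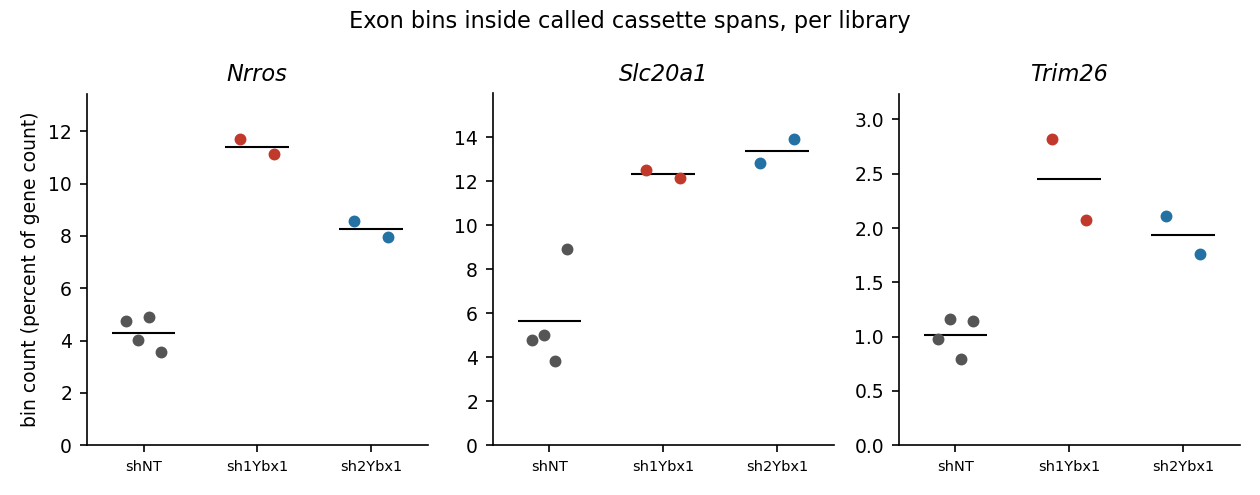
Reads of 1 exon bin as a percent of the gene count (axes from 0, different ranges), 1 dot per library with the group mean as a line. The bins lie inside the spans of the called Nrros, Slc20a1 and Trim26 events, and those of the called Rex1bd event are not drawn. Shares run from 3.57% to 4.89% in shNT and 7.96% to 11.7% in the knockdown for Nrros. No knockdown library overlaps shNT in Nrros, Slc20a1 or Trim26.

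Exon features were counted by direction, as a description without a test. A length that is a multiple of 3 was found in 15 of 36 exons with higher inclusion, 15 of 49 with lower inclusion and 687 of 1295 exons not called (53.1%). Among fully coding exons alone these counts were 12 of 19, 13 of 42 and 568 of 958 (59.3%). Fully coding exons made up 19 of 36 with higher inclusion and 42 of 49 with lower inclusion, against 958 of 1295 not called. The median length was 81 bases for higher, 139 for lower and 96 for exons not called. The letters CATC (searched on the transcript strand, any overlap counted) occurred in 10 of 35 exons with higher inclusion, 28 of 49 with lower inclusion and 34.2% of those not called, but per 100 bases the rates were 0.470, 0.449 and 0.444. CACC, searched in the same way, occurred in 9 of 35, 17 of 49 and 36.5%.

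Some events switch between a coding transcript and 1 annotated for nonsense-mediated decay. The decay form held the exon in 7 of 29 events with higher inclusion, 1 of 30 with lower inclusion and 65 of 926 not called. The decay form lacked it in 1 of 29, 5 of 30 and 80 of 926. Of the 14 called events of these kinds, 12 had a delta PSI toward the decay form in the authors' deposited table, beside 58.3% of all 139 such events with a delta other than 0. They included Ptbp2 and Ahcyl1 among lower exons, and Spopl, Naa16, Prpf3 and Pan3 (16.3 points in the authors' deposited table), a subunit of a deadenylase, among higher ones. The transcript ratio of the same libraries pointed to the decay form in 6 of the 13 with a share in all 8 libraries.

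**Figure D4:**
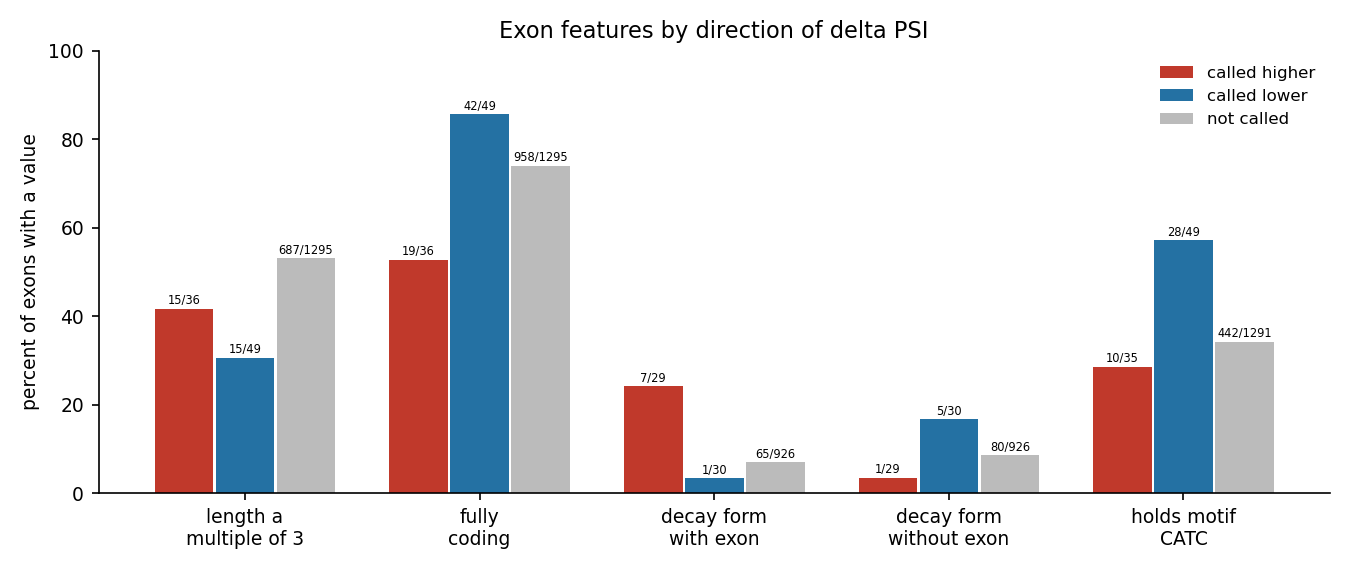
Percent of exons with each feature (bars from 0) among events called higher, called lower and not called, with the counts above the bars. Exons called lower are fully coding in 42 of 49 and hold CATC in 28 of 49, and the decay form holds the exon in 7 of 29 events called higher against 1 of 30 called lower.

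The 4th comparison took the RNA level of the host genes, in gene counts. Calls for both hairpins again came from the mean of the hairpin groups against shNT, not from a call with each. Of 1362 host genes tested, 376 (27.6%) passed edgeR's adjusted p under 0.05 for both hairpins, beside 28.9% of all 13552 genes. They were 112 higher (8.22%) and 264 lower (19.4%), against 14.8% and 14.2% of all genes and 11.7% and 15.7% of the 11283 protein-coding genes tested. The median log2 fold change of host genes was -0.14 beside -0.06 over protein-coding genes and -0.004 over all genes. With sh1Ybx1 alone 84 were higher (6.17%) and 155 lower (11.4%), beside 19.2% of all genes called, 11.2% higher and 7.96% lower. With sh2Ybx1 alone 71 were higher (5.21%) and 170 lower (12.5%), beside 19.9% of all genes called, 10.4% higher and 9.45% lower. Of 98 hosts of called events, 23 (23.5%) were called for both hairpins, 8 higher (8.16%) and 15 lower (15.3%). The count of 376 rested on single libraries. It was 692 without shNT replicate 4, 107 and 166 without sh1Ybx1 replicates 1 and 2, and 101 and 163 without sh2Ybx1 replicates 1 and 2, with lower calls ahead of higher ones each time.

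Mknk1 fell in all knockdown libraries. It stood at 111.5, 92.7, 144 and 149 CPM in shNT, 61.2 and 58.1 CPM in sh1Ybx1 and 76.7 and 67.7 CPM in sh2Ybx1. No knockdown library reached the shNT range, and the level fell by 0.92 on the log2 scale (edgeR adjusted p = 0.00750), also on leaving out each library in turn. Ahcyl1 was at 190 to 275 CPM in shNT and 128 to 161 CPM in the knockdown and fell by 0.69 (edgeR adjusted p = 0.0108). Tollip was at 107 to 167 CPM and 71.3 to 88.8 CPM and fell by 0.66 (edgeR adjusted p = 0.0183), while its exon's share was higher. Mprip fell by 0.55 (edgeR adjusted p = 0.00909), Slc35a2 by 0.57 (adjusted p = 0.0257), Papd4 by 0.63 (adjusted p = 0.0419), Mknk2 by 0.40 (adjusted p = 0.0340) and Snrnp200 by 0.39 (adjusted p = 0.0496, and 0.0502 with no filter on low counts). Ptbp2 was at 19.0 to 30.6 CPM in shNT and 27.7 to 42.3 CPM in the knockdown, which overlap, and rose by 0.61 (edgeR adjusted p = 0.0311). Pisd rose by 0.49 (edgeR adjusted p = 0.0194) and Trim26 by 0.89 (adjusted p = 0.0103). Mapkapk3 was at 57.4 to 64.1 CPM in shNT, 114 and 113 CPM in sh1Ybx1 and 66.1 and 65.1 CPM in sh2Ybx1. Its level rose by 0.49 over the mean of both hairpins (edgeR adjusted p = 0.0102) and by 0.89 with sh1Ybx1 (adjusted p = 0.00360). With sh2Ybx1 alone Mapkapk3 was not called, at a log2 value of 0.09 (adjusted p = 0.612). The difference between the hairpins, a log2 value of 0.79, did not pass edgeR's adjustment over all genes (adjusted p = 0.0526). The Ahcyl1, Mprip and Trim26 calls ended without sh1Ybx1 replicate 1 or sh2Ybx1 replicate 1, the Mapkapk3 call without 3 of the knockdown libraries, the Tollip and Slc35a2 calls without any 1 of the 4 knockdown libraries, and those of Papd4, Mknk2, Pisd, Snrnp200 and Ptbp2 without 5 to 7 of the 8 libraries.

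Retained introns were counted in the same hosts. Of 533 retained-intron events in 263 host genes, 141 (26.5%) were called at the authors' p under 0.05, 136 of them higher, beside 24.0% of the 4379 events in all genes with an ID. In genes with a called lower cassette event, 12 of 32 retained-intron events were called, all higher, and in those with a called higher cassette event 0 of 5. The median delta PSI was 6.49 points over the 32 events and 11.6 points over the 5, which lie in 3 genes. Nothing is read from so few events. The spans of cassette and retained-intron events overlapped in 1 of 1556 events, and the part of retention in the cassette results was not tested.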

How the data were processed

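RNA sequencing of polyadenylated RNA from 8 libraries was analysed from the authors' files. Tools listed in the submitters' processing notes, with no version or role, are RSEM, STAR, limma and featureCounts, and builds are GRCm38 and mm9. The authors deposited raw counts per gene and per exon bin, TPM per gene and transcript (RSEM column names, per the file headers), and per splicing event a delta PSI (a score from -1 to 1, printed here in percentage points) and an unadjusted p-value. The deposited exon table also gives the authors' log2 fold change per bin. Which program made the event calls is not stated in these sources. Event coordinates matched GRCm38 splice junctions of GENCODE M21.

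Members are the rows of class Cassette Exon. The members, gene lists and rule for named genes were chosen with earlier results of these data known. The rule took the 10 smallest authors' p in each direction where the gene's mean TPM reached 5 and the absolute delta 0.1, up to 3 called events per list, all MAPK and ERK pathway events, and exons that match a bin. Events with an adjusted p under 0.05 were added, and 1 of them is not reported here. Gene counts were fitted with edgeR 4.0.16 (quasi-likelihood, TMM, filterByExpr, 3 group means, R 4.3.3). Log2((bin count + 0.5)/(gene count + 1)) and log2((inclusion TPM + 0.5)/(skipping TPM + 0.5)), for a summed TPM of 1 or more, were fitted with limma 3.58.1, all with Benjamini-Hochberg adjustment over every feature fitted. Fold changes on these scales understate those of low values. The SE of edgeR values was derived from the F statistic. DESeq2 1.42.0, other scalings, filters and pseudocounts, a replicate block and each library left out were alternatives. The scripts were tested on simulated data. TPM keeps no depth, and shares listed at 0 or 100% may be failed estimates. No strand setting is given, so overlapping antisense reads may not be separated.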

Additional observations from a re-analysis of the deposited data

Results flagged for a closer look

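The share of Tollip transcripts with the cassette exon was marked for a sample far from the others of its group. It was 2.56% in shNT replicate 1 and listed at 0 in the other 3 shNT libraries, so the gap to the nearest other library made up the whole range of the group (a gap over range of 1). The test covered 20 sets of 4 shNT values, and chance marks about 1 in 20. Of the host gene levels and inclusion ratios of named events, none passed the test of a difference between sh1Ybx1 and sh2Ybx1 (edgeR and limma, adjusted over all genes and all events).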

How the results depend on the processing

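Called cassette events fell from 100 to 30 at the authors' p under 0.01, 9 at 0.001 and 49 with an absolute delta PSI of 0.1 or more. Host genes called for both hairpins numbered 376, and 101 to 692 with 1 library left out. For sh1Ybx1 the count of 239 went to 375 with DESeq2 and to 7 to 621 with 1 library left out, and for sh2Ybx1 the count of 241 went to 372 and to 2 to 617. The replicate block gave 688, 662 and 646 host genes, but same-numbered libraries correlated only at 0.0005 to 0.305, so the numbers were not taken as pairs, and it gave 31, 31 and 32 span bins and 0 transcript events. Of the 34 bins in cassette spans, 31, 31 and 32 were called for both hairpins, sh1Ybx1 and sh2Ybx1, and 14 in each of the 16 left by a mean count of 50 or more; leaving out 1 library gave 31, 8 to 31 (8 without sh1Ybx1 replicate 1) and 23 to 32. No named value reversed under any alternative run, the transcript count stayed at 0, and the causes were not tested. With a block, the Nrros and Tollip ratios had limma log2 values of 1.61 and 3.03 (adjusted p = 0.860 and 0.777), and the Papd4 level an edgeR log2 value of -0.32 (adjusted p = 0.0137) against -0.63. As the bin's own CPM, the Trim26 bin differed by a log2 value of 2.10 against 1.05 for its share. Depth per transcript is unknown in TPM, and 4 against 4 libraries cannot give an exact p below 0.0286.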
